A study of Caenorhabditis elegans with 4 samples.

Results

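The regions described here are 689 TAF-1 binding sites that lie close to another TAF-1 site in embryos of the nematode Caenorhabditis elegans. They were chosen from the 2984 nuclear peaks of the series peak list as those whose gap to a neighbouring peak on the same chromosome, next start minus previous end, was under 1000 bp. The other 2295 nuclear peaks had no neighbour that near. Because the rule used the positions in the series list, gap lengths, run sizes, widths and scores from that list are given as a description and were not tested.

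The study mapped TAF-1 by chromatin immunoprecipitation and sequencing (ChIP-seq) in 2 TAF-1 ChIP libraries, with 2 input DNA libraries as their counterpart. All 4 came from wild-type N2 worms at 20 °C, as mixed-stage embryos of a population of males and hermaphrodites, fixed for 30 min in 2% formaldehyde. The antibody, SDQ4109, is an affinity-purified rabbit polyclonal against a stretch of TAF-1. Each ChIP library has a peak list of its own, and the input libraries were not analysed here. Whole embryos of many stages were pooled, so 2 neighbouring sites bound in the same cells and 2 bound in different cells cannot be told apart. Nothing in the labels says that the replicates came from separate cultures, so their agreement may be technical.

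TAF-1 is the scaffold subunit of TFIID, the complex that binds core promoters through TBP and its associated factors and nucleates assembly of the RNA polymerase II machinery. Genes in C. elegans are densely packed, and neighbouring genes can have starts close together, in divergent arrangements or one behind another. Many worm transcripts are trans-spliced near their 5′ end, which removes the original start, so that the mature RNA does not show where transcription began. Peaks were not assigned to genes or promoters here, because no annotation on WS220, the WormBase build of the peaks, was used.

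Close TAF-1 sites mostly came as pairs, and short gaps were the most frequent. The 689 peaks formed 275 runs, in which each gap between neighbours was under 1000 bp, with 414 gaps in all. Pairs made up 209 runs (76.0%) and held 60.7% of the peaks. A further 34 runs had 3 peaks, 17 had 4, and 15 had from 5 to 10. The median gap was 328 bp (quartiles 147 and 611 bp), and the shortest was 45 bp. Gaps of 0 to 99 bp and of 100 to 199 bp numbered 70 each, against 24 gaps of 900 to 999 bp. Counts per 100 bp of gap length went on at 23.2 for gaps of 1000 to 1249 bp and 9.60 for the longest gaps counted, those just short of 2000 bp. Between 500 and 999 bp the counts per 100 bp lay between 24 and 30, so they changed little at the limit of 1000 bp. In total 168 gaps lay between 1 and 2 kb.

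**Figure D1:**
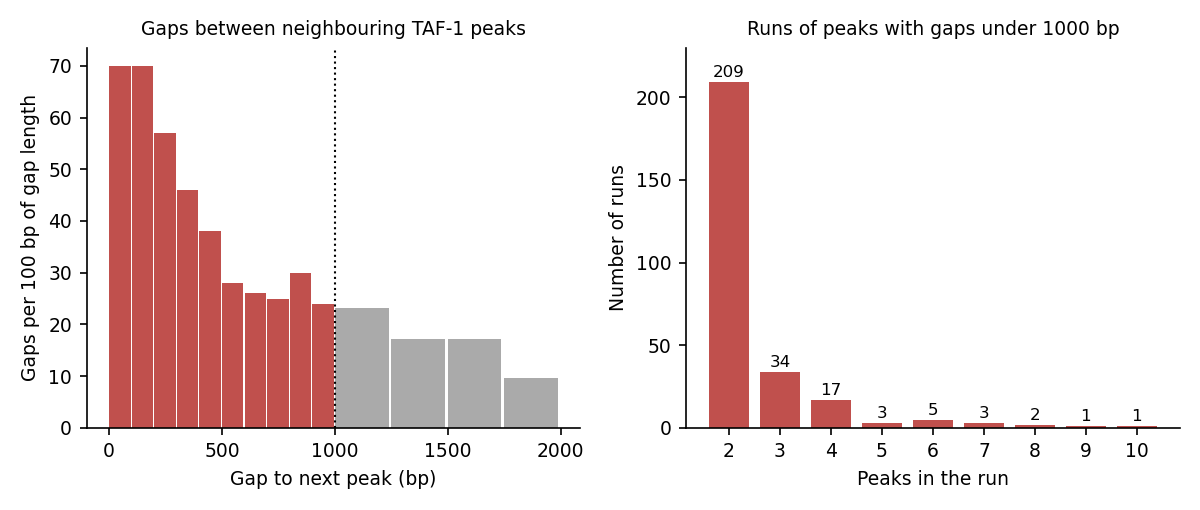
Left, number of gaps between neighbouring series peaks per 100 bp of gap length, against gap length in bp, with gaps under 1000 bp in red and the limit dotted. Right, number of runs by the number of peaks they hold. Gaps are most frequent below 200 bp, and 209 of 275 runs are pairs.

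The 3 gaps nearest below the limit were 986 bp on X and 994 bp on both III and IV. Their left and right peaks scored 118.14 and 15.98 on X, 4.46 and 13.02 on III, and 13.17 and 7.23 on IV. Just above the limit came gaps of 1002 bp on III, 1004 bp on I and 1006 bp on V. The peaks flanking them scored 13.71 and 3.48, 4.13 and 13.87, and 11.52 and 4.06. Apart from the strong X peak, the scores on either side of the limit spanned similar values.

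Over the whole list, close peaks were somewhat wider and scored slightly lower than the others, but neither held for every way of counting. The score is the authors' value from the peak caller, with no scale given in the file headers. The median width was 276 bp for close peaks (25th and 75th percentiles 187 and 424 bp) and 236 bp for the others (182 and 328 bp). The 90th percentile was 774 bp for close peaks and 481 bp for the others. Of the 69 series peaks over 1000 bp wide, 43 (62.3%) were close peaks. Median series scores were 7.72 (quartiles 4.42 and 16.6) for close peaks and 8.65 (5.03 and 17.9) for the others. With the list divided by score into 4 classes of equal size, close peaks made up 27.2% of the lowest class and 21.8% of the highest, against 23.1% of the whole list. Among peaks found in both replicate lists, the difference in median width was -4.5 bp (-26.5 to 24.5) and the ratio of median scores was 0.59. With the highest-scoring peak of each run alone, a choice that favours strong peaks, the ratio was 1.56 in place of 0.89.

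Strong sites had close neighbours about as often as sites of any strength. Of the 10 highest series scores 1 belonged to a close peak, and of the highest 100, 26 did (26.0%, 17.7 to 35.7%), against 23.1% of all nuclear peaks. The one in the top 10 was a 1231-bp peak on V (9089251 to 9090481, WS220, as all coordinates here) with a score of 182.08, in a run of 6. A second broad peak in that run, 1238 bp wide at 9087330 to 9088567, scored 141.8. The 4 others scored 24.81, 17.12, 11.67 and 6.39. In replicate 1 the 2 broad peaks each overlapped a peak scoring 3100, a value at which many replicate scores stop. Around them the 4 weaker peaks overlapped replicate 1 peaks scoring from 65.12 to 322.48. All 6 overlapped a replicate 2 peak scoring 3100. This run was singled out after its values were seen.

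Within a pair, the scores of the 2 members were often unequal. The stronger member had a median series score of 12.1 and the weaker of 5.18, and the median ratio of stronger to weaker was 1.86 (quartiles 1.31 and 3.58). In 195 of 414 pairs (47.1%) the stronger scored at least 2 times the weaker, and in 34 pairs (8.21%) at least 10 times. The most unequal pair lay on III, where a 1.43 peak at 3895809 to 3896041 was 973 bp from a 143.71 peak at 3897014 to 3897779. Neither side was favoured, since the stronger member was on the left in 205 pairs and on the right in 207, with 2 ties. Scores of neighbours ranked weakly alike, with Spearman's rho of 0.31 over the 414 pairs. For neighbours 1 to 2 kb apart rho was 0.13 (n = 168), for those 2 to 5 kb apart 0.31 (n = 254), and beyond 20 kb 0.0040 (n = 1389). All of these peaks come from a single list and share its depth, and a peak in a run enters up to 2 pairs.

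**Figure D2:**
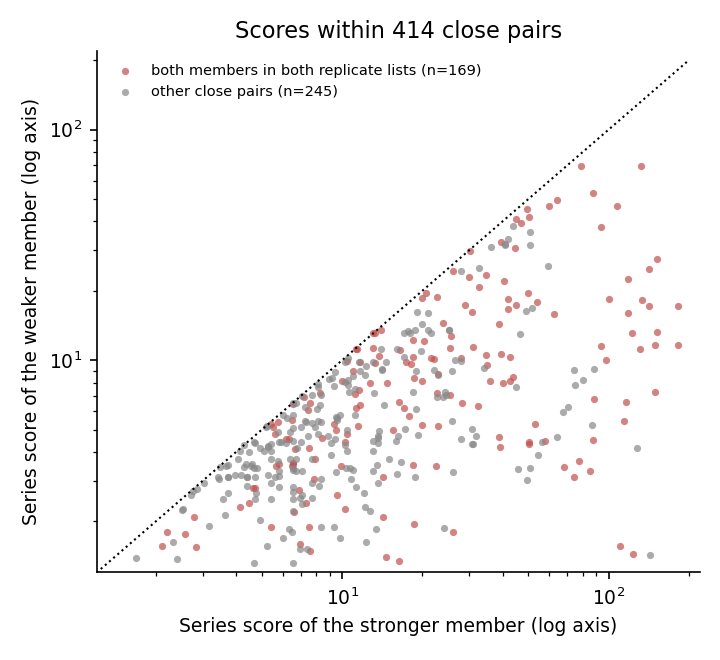
Series score of the stronger member (x, log axis) against the weaker member (y, log axis) for 414 close pairs, with the dotted line marking equal scores. Red points are the 169 pairs whose members both overlap both replicate lists, and grey points are the 245 others. Few pairs have 2 high scores.

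The pairs in which both members were strong were led by a pair on chromosome IV. Its members, 860 bp each at 8467409 to 8468268 and 8468477 to 8469336, scored 69.86 and 132.07 across a gap of 209 bp. They overlapped separate replicate 1 peaks, scoring 1109.45 and 3100, and a common replicate 2 peak scoring 3100. The next was on II, at 5660979 to 5661374 and 5661611 to 5662196, with scores of 69.71 and 78.71 and a gap of 237 bp. Here too replicate 1 had separate peaks (797.26 and 1179.55) and replicate 2 a single peak over both (2952.09). The leading pair on I (9380914 to 9382002 and 9382705 to 9383383) scored 53.05 and 87.57 across 703 bp, with replicate 1 peaks of 3058.79 and 3100. On X the leading pair (17544291 to 17544715 and 17545439 to 17545755) scored 107.17 and 46.81. It was resolved in both replicate lists, with 613.83 and 391.53 in replicate 1 and 2017.97 and 368.6 in replicate 2. The leading pairs of the other 2 chromosomes were weaker and less well covered. On V (5776978 to 5777260 and 5778199 to 5778451) the members scored 41.94 and 33.66, with separate replicate 1 peaks and no replicate 2 peak. On III (13061099 to 13061349 and 13062330 to 13062803) they scored 16.24 and 19.06, and replicate 2 covered the right member only.

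Ranked by the score of the weaker member, all of the top 10 pairs had both members in both replicate lists, as 40.8% of all close pairs did. In the highest of 4 score classes, single peaks are mostly in both lists, at 86.5% of close peaks and 84.6% of others. That class starts at 17.51, whereas members of the top 10 pairs score at least 39.3. Single peaks with scores that high were not counted apart. In 9 of the 10, replicate 1 had a separate peak for each member, and in 7 of the 10 a single replicate 2 peak lay over both. The 10 pairs hold 19 peaks, since 3 neighbouring sites on IV gave 2 of them. These sites, at 11025873 to 11026414, 11026590 to 11026920 and 11027581 to 11028040, scored 59.54, 46.85 and 39.3. They overlapped replicate 1 peaks scoring 1123.49, 401.8 and 629.75 and a replicate 2 peak scoring 3100. The remaining 4 pairs lay on II, at 10033466 to 10034984, 11633852 to 11635416 and 14250036 to 14251875, and on I at 7543377 to 7545243, and their members scored between 40.94 and 64.17.

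The shortest gaps joined modest peaks, and replicate 1 usually did not split them. The 5 shortest were 45 bp at 2 places on X and 1 on I, and 46 bp on III and V. Series scores of their members ranged from 4.76 to 10.99. In 4 of these 5 pairs a single replicate 1 peak covered both members. The exception was on III, at 7431532 to 7431985 and 7432031 to 7432373, where replicate 1 had separate peaks scoring 90.44 and 73.55. Of the 5, the pairs on I and at 9185926 to 9187100 on X had a common replicate 2 peak as well, and the other 3 had no replicate 2 peak.

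The replicate lists, which the rule did not use, were then compared between close peaks and the others. The replicate libraries may be the source of the series list, so overlap with them is not an independent experiment. Peaks overlapping by at least 1 bp were counted, and all intervals are 95% intervals for counting error over peaks, with read depth unknown. Both replicate lists covered 363 of 689 close peaks (52.7%, 48.9 to 56.5%) and 884 of 2295 others (38.5%, 36.5 to 40.5%). Over all nuclear series peaks the share was 41.8%. The difference of 14.2 percentage points had an interval of 9.93 to 18.4 (Newcombe's method). Weighted over 4 classes of series width it was 5.88 points, and on X alone -1.16, both chosen after seeing the data. Neighbouring peaks often share a replicate peak, so this interval is too narrow.

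The difference was larger for replicate 2 than for replicate 1. The intervals of the 2 differences come from the same series peaks. Neighbours often share a replicate peak, so both intervals are too narrow to be set against each other. The replicate 2 list covered 72.0% of close peaks (68.5 to 75.3%) and 48.8% of others (46.7 to 50.9%), against 54.2% of all nuclear series peaks, a difference of 23.2 points (19.2 to 27.0). Replicate 1 covered 65.9% of close peaks (62.2 to 69.4%) and 56.5% of others (54.4 to 58.5%), against 58.6% of all, a difference of 9.42 points (5.28 to 13.4). Replicate 2 peaks are wide, with a median of 1145 bp against 430 bp in replicate 1, and what their width contributes was not tested. Only 102 close peaks (14.8%, 12.2 to 17.7%) were in neither list, compared with 763 others (33.2%, 31.3 to 35.2%) and 29.0% of all, a difference of -18.4 points (-21.6 to -15.0).

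Coverage by each replicate was higher under 250 bp than beyond 20 kb, with the wider range in replicate 2. Of peaks with a neighbour under 250 bp away, 77.0% were in replicate 2 (71.8 to 81.6%), of those at 250 to 499 bp 71.4% (64.0 to 78.1%), of those at 500 to 999 bp 65.4% (58.7 to 71.7%), and of those at 1 to 2 kb 52.4% (46.3 to 58.4%). Beyond 20 kb the share was 49.6% (45.9 to 53.4%). For replicate 1 the shares at these distances were 68.8%, 60.1%, 66.4%, 58.2% and 55.3%, with no steady fall below 1 kb. Overlap with both lists was 56.9% under 250 bp, 48.8% at 250 to 499 bp, 49.8% at 500 to 999 bp, 41.0% at 1 to 2 kb and 39.0% beyond 20 kb.

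**Figure D3:**
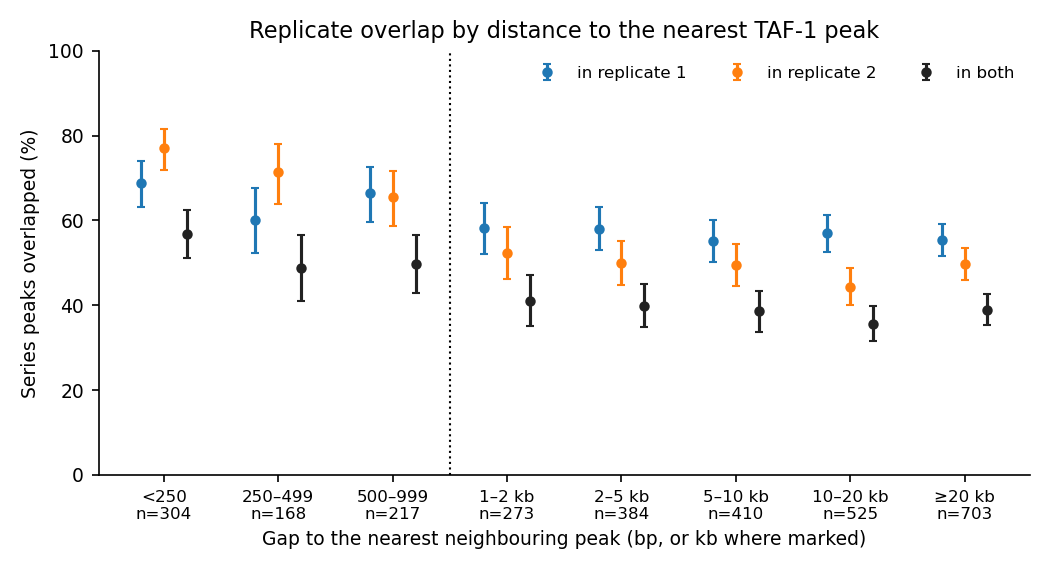
Percentage of series peaks overlapped by replicate 1 (blue), replicate 2 (orange) and both (black), against the gap to the nearest neighbouring peak, with exact 95% intervals for counting error and the number of peaks under each class. Classes left of the dotted line are the close peaks. Replicate 2 coverage is 77.0% in the nearest class and 49.6% in the farthest.

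Among peaks of like score, the gap between close and other peaks was found in the lower 3 of the 4 score classes. In the lowest class, with series scores up to 4.81, 30.0% of 203 close peaks and 14.7% of 544 others were in both lists, a difference of 15.3 points (8.63 to 22.5). In the next classes it was 22.9 points (15.0 to 31.0) and 24.6 points (15.8 to 32.9). In the highest class, from 17.51 upward, 86.5% of close peaks and 84.6% of others were in both lists, with a difference of 1.94 points (-4.73 to 7.37). For replicate 1 alone the differences in the lower 3 classes were 14.7, 21.6 and 10.9 points. For replicate 2 alone they were 31.9, 32.1 and 31.3 points. A close peak can be covered by a replicate peak that lies over its neighbour, and what this adds was not tested.

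Classes of width, 4 of nearly equal size, gave another order. Among the narrowest, up to 183 bp, 22.9% of close peaks and 5.58% of others were in both lists, a difference of 17.3 points (11.1 to 24.7). In the next classes it was 19.4 points (11.0 to 28.4) and 8.49 points (-0.08 to 16.6). In the widest class, from 345 bp upward, close peaks were in both lists less often, at 75.7% against 86.9% of others (-11.1 points, -17.6 to -5.15). A few runs held many of the peaks missing there: of the 57 wide close peaks not in both lists, 27 came from 6 of the 30 runs concerned. Without runs of 5 or more peaks, an alternative chosen after seeing the data, the share of close peaks was 82.9% (-3.96 points, -10.5 to 1.69). The runs removed were not the 6 runs above. Among the 6, those on II (from 4640811) and X (from 10361066) have 4 peaks each and were kept. The 6-peak run on V (9086777 to 9091630), with all 6 members in both lists, was removed. In the whole class, replicate 2 covered 81.3% of close peaks and 92.4% of others, while for replicate 1 the shares were 89.4% and 91.6%, with an interval of the difference of -7.26 to 2.10 points.

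The replicate lists differed in whether they split the pairs. In replicate 2 a single peak lay over both members in 252 of 414 pairs (60.9%, 56.0 to 65.6%), and the members had separate peaks in 22 (5.31%, 3.36 to 7.94%). In replicate 1 a single peak covered both in 93 pairs (22.5%, 18.5 to 26.8%), and 131 pairs (31.6%, 27.2 to 36.4%) had separate peaks. A further 105 pairs in replicate 1 and 38 in replicate 2 had 1 member covered. No member was covered in 85 pairs in replicate 1 and in 102 in replicate 2. In 87 pairs (21.0%) replicate 1 had separate peaks and replicate 2 a common one. The reverse occurred in 0 of 414 pairs (interval up to 0.887%). The narrowest replicate 2 peak was 672 bp wide and the narrowest replicate 1 peak 118 bp. What peak width adds to this count was not tested.

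Gap length went with these outcomes in both lists. For gaps under 250 bp, a common peak covered 45.8% of 166 pairs in replicate 1 and 74.7% in replicate 2, and separate peaks 16.9% in replicate 1 and 0 pairs in replicate 2. At 750 to 999 bp, a common peak covered 1 of 69 pairs in replicate 1 and 15 (21.7%) in replicate 2. Separate peaks at that distance marked 36 pairs (52.2%, 39.8 to 64.4%) in replicate 1 and 17 (24.6%, 15.1 to 36.5%) in replicate 2. The share of pairs with no replicate 2 peak at all was between 21.9% and 25.3% in each of the 4 gap classes.

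**Figure D4:**
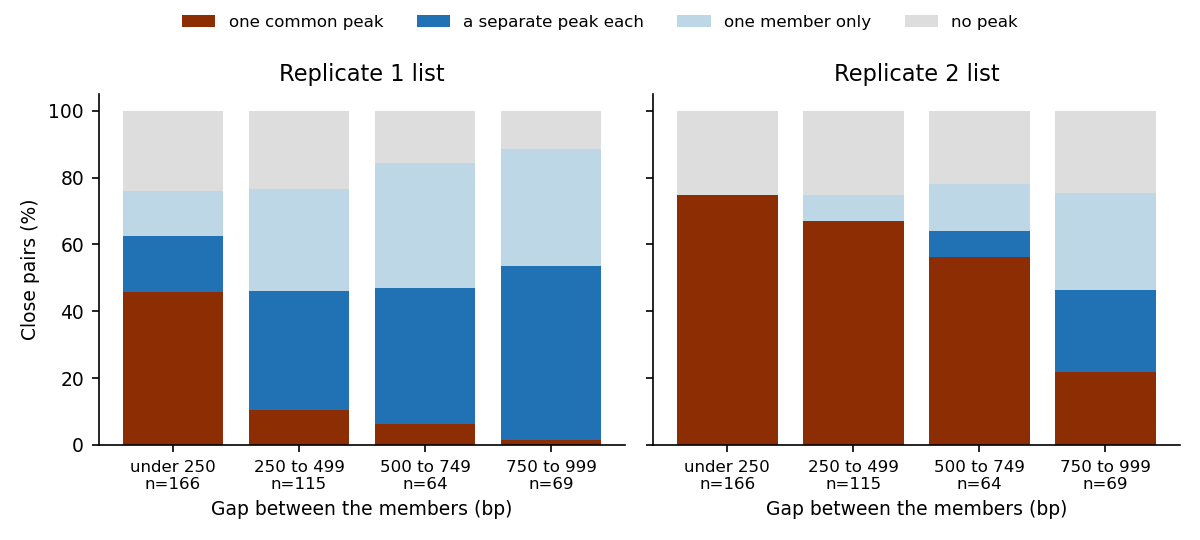
Percentage of close pairs in each replicate list covered by one common peak, by a separate peak for each member, at one member only, or by no peak, in 4 classes of gap length in bp, with the number of pairs under each bar. Common peaks are 45.8% of the shortest class in replicate 1 and 74.7% in replicate 2.

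Both lists resolved 13 pairs, all with series gaps from 643 to 982 bp. In all 13 the stronger member by series score also had the higher replicate 1 score, and in 12 of 13 the higher replicate 2 score. The exception was on IV at 11338307 to 11340738, with series scores of 18.51 and 41.97 and replicate 2 scores of 1163.14 and 969.9. Over the pairs that replicate 1 split and whose series scores differed, the order of scores was the same in 107 of 130 (82.3%, 74.6 to 88.4%). For replicate 2 it was the same in 15 of 22 (68.2%, 45.1 to 86.1%).

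The weaker member of a pair was covered less often than the stronger, mainly in replicate 1. Over the 412 pairs with unequal scores, replicate 1 covered the stronger member in 75.7% (71.3 to 79.8%) and the weaker in 58.0% (53.1 to 62.8%). It covered only the stronger in 89 pairs and only the weaker in 16. In replicate 2 the shares were 72.8% (68.2 to 77.1%) and 68.4% (63.7 to 72.9%), with only the stronger covered in 28 pairs and only the weaker in 10. Both members come from the same pairs, so the intervals of the 2 shares are not for setting against each other. Of the 282 weaker members covered by replicate 2, 250 (88.7%) lay under a peak that also covered their stronger neighbour. In replicate 1 that held for 93 of 239 (38.9%).

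Seen from the replicate lists, peaks that held several series peaks were wide and high-scoring. In replicate 2, 198 of 2090 peaks (9.47%) held 2 or more series peaks, with a median width of 2109 bp and a median score of 570. The 1146 that held a single series peak had medians of 1128 bp and 195, and the 746 that held none 1093 bp and 82.95. Of the 198, 38 (19.2%) scored 3100 or more. In replicate 1, 70 of 1882 peaks (3.72%) held 2 or more, with a median width of 1193 bp, against 418 bp for peaks holding a single one. As a wide peak can hold more series peaks, the width difference follows in part from the grouping.

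The replicate lists also had close peaks of their own. By the same rule, 365 of 1882 replicate 1 peaks (19.4%) and 296 of 2090 replicate 2 peaks (14.2%) had a neighbour within 1000 bp. The 209 close gaps of replicate 1 fell on the same run of close series peaks in 140 cases (67.0%), with a different series peak on each side. For the 158 close gaps of replicate 2 that was so in 22 cases (13.9%).

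Full coverage by both lists was found in runs of every size class, and few runs were large. Every member was in both lists in 78 of 209 pairs (37.3%, 30.7 to 44.3%), in 25 of 51 runs of 3 or 4 (49.0%, 34.8 to 63.4%) and in 2 of 15 runs of 5 or more (13.3%, 1.66 to 40.5%). The condition is stricter for a run with more members, so the 3 shares cannot be compared with each other. Counted by peak, 52.4% of 418 members of pairs were in both lists. The share was 61.8% of 102 peaks in runs of 3 and 64.7% of 68 in runs of 4. Of the 101 peaks in the 15 large runs, 69 were in replicate 1, 49 in replicate 2, 37 in both and 20 in neither. Replicate 2 had no peak in 5 of these 15 runs, and replicate 1 had none in 2.

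The 5 runs with the most peaks differed from each other in score and in coverage. The largest, 10 peaks over 6026 bp on X (7352399 to 7358424), was weak throughout, with series scores from 2.5 to 6.55. Replicate 1 covered only its first peak, with a score of 56.43, and replicate 2 covered none. The second, 9 peaks over 5590 bp on IV (15076591 to 15082180), had narrow members of 160 to 283 bp with scores from 11.18 to 25.09. Replicate 1 had 4 separate peaks on it, scoring 58.1 to 99.46, and replicate 2 a single 2284-bp peak over 5 members, scoring 411.83.

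Runs on I and V were seen by replicate 1 alone. On I, 8 peaks spanned 7257 bp (4540362 to 4547618) with series scores from 1.62 to 22.87, and 78.8% of the span was under series peaks. Replicate 1 had 4 peaks over them, scoring 129.07 to 699.34. On V, 8 peaks spanned 6805 bp (10605647 to 10612451) with scores from 1.32 to 10.99. A single replicate 1 peak of 6931 bp, scoring 1547.1, covered all 8. Neither run overlapped a replicate 2 peak. A further run of this kind, on II (13817487 to 13828605), was picked after its values were seen. It held 6 broad peaks of 1067 to 1222 bp, scoring 31.03 to 50.55 in the series list and 886.03 to 1305.56 in replicate 1, followed by a 500-bp peak scoring 4.34 and 231.21. Replicate 2 covered none of its 7 members.

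The fifth run was the strongest of the 5 and was found by both replicates. It held 7 peaks over 4511 bp on IV (14476558 to 14481068). From left to right their series scores were 20.83, 32.65, 39.4, 10.62, 7.27, 5.42 and 113.99. Replicate 1 had a separate peak for 6 of the 7, missing the fifth, and its peak at the right end scored 1890.48. Replicate 2 had a single peak of 5228 bp over the whole run, scoring 3100.

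**Figure D5:**
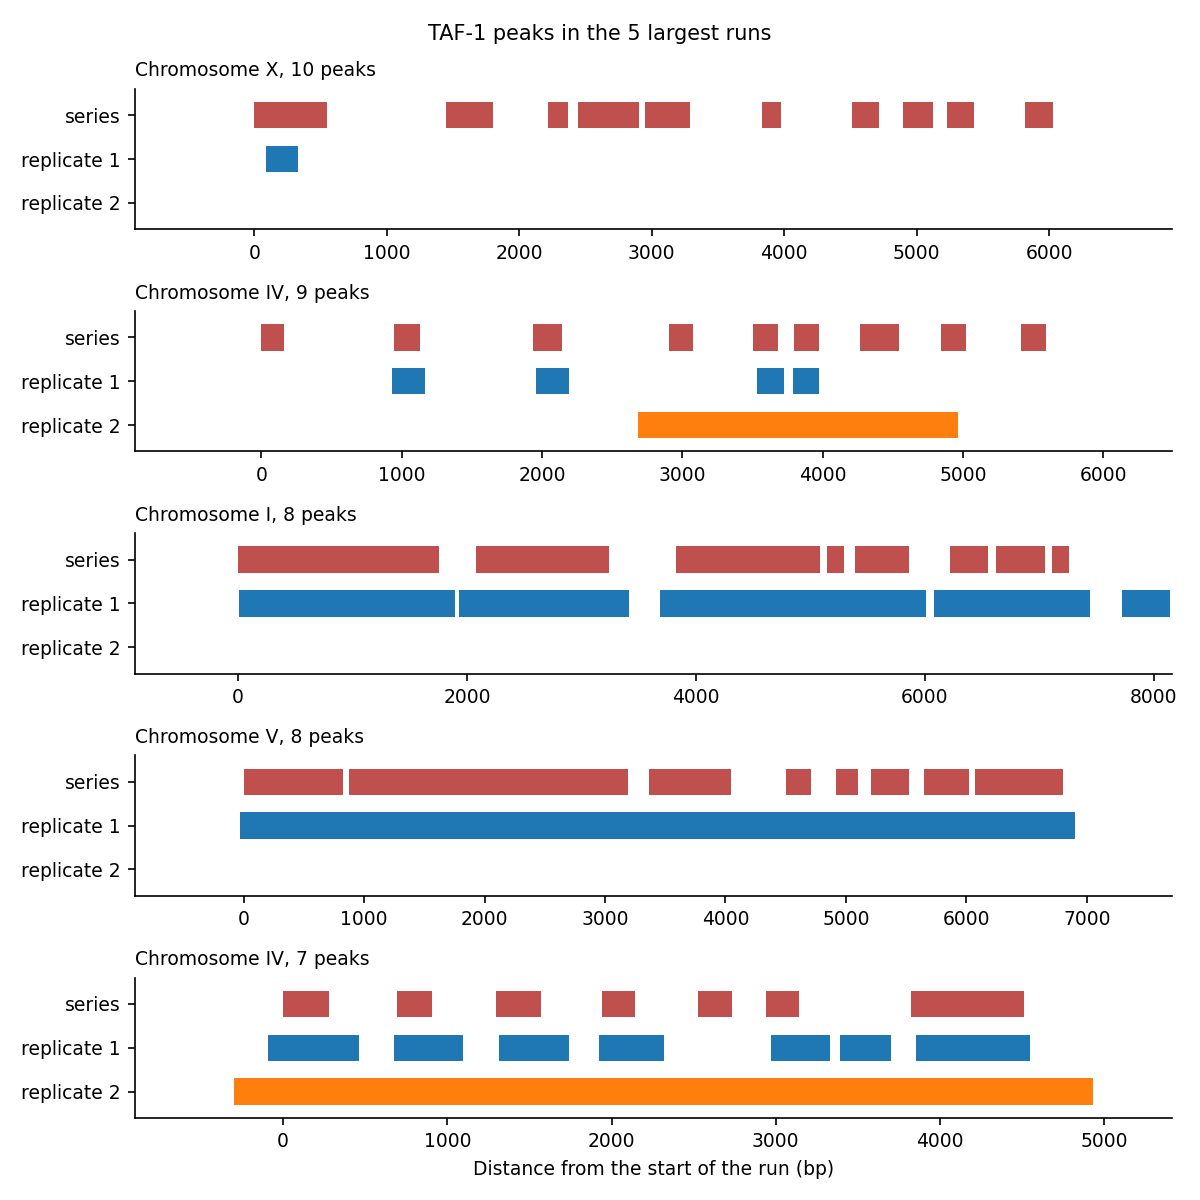
Peaks of the series list (red), replicate 1 (blue) and replicate 2 (orange) in the 5 runs with the most series peaks, against distance from the start of the run in bp. Each bar spans a peak from start to end and its height carries no value. Replicate 2 has no peak on the runs of X, I and V, and a single broad peak on each run of IV.

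Close peaks were found on all 6 nuclear chromosomes, at shares from 21.1% to 27.0%. They made up 27.0% of peaks on IV (23.1 to 31.2%), 24.7% on V (20.8 to 29.0%), 22.5% on X (19.3 to 25.9%), 22.2% on III, 21.2% on I and 21.1% on II. The interval for IV overlaps that of every other chromosome, which does not show that the shares are equal. Differences between chromosomes were not computed. Runs numbered 3.19 per Mb on III, 3.17 on X, 3.05 on I, 2.92 on IV, 2.42 on II and 1.96 on V. Each chromosome's span was measured up to the last base under a peak. All series peaks numbered 492 over 13.8 Mb on III, 641 over 17.7 Mb on X and 496 over 15.1 Mb on I. On IV there were 489 over 17.5 Mb, on II 421 over 15.3 Mb and on V 445 over 20.9 Mb. The run counts were not adjusted for this density of all peaks. Median scores of close peaks were between 5.78 on I and 11.2 on IV. On IV and II close peaks had the higher median (11.2 against 8.41, and 8.95 against 8.09 for other peaks), and on the other 4 chromosomes the lower. On the autosomes 31.4% of close peaks (27.5 to 35.5%) and 34.4% of others (32.2 to 36.7%) had their midpoint in the central 33.3% of the span, a difference of -3.05 points (-7.42 to 1.51).

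On X, close peaks were covered by both replicates about as often as the others. Both lists covered 46.5% of 144 close X peaks and 47.7% of 497 others, a difference of -1.16 points (-10.2 to 8.07). Without the 10-peak run it was 2.31 points (-7.12 to 11.7). On the 5 autosomes together the shares were 54.3% and 36.0%, a difference of 18.3 points (13.6 to 23.0). Single autosomes gave differences from 10.2 points on I (-0.13 to 20.8) to 26.5 points on II (14.8 to 37.0). On III the difference was 13.6 points, on V 16.7 and on IV 23.9. Replicate 2 had no peak on 32 of 88 close X pairs (36.4%, 26.4 to 47.3%), compared with 70 of 326 autosomal ones (21.5%, 17.1 to 26.3%). The 10-peak run gave 9 of the 32, and without it the X share was 23 of 79 (29.1%, 19.4 to 40.4%). The autosomal share kept its own large runs without a replicate 2 peak, among them the 8-peak runs on I and V. The X share without its run and the autosomal share were therefore not treated alike. The contrast between X and the autosomes was noticed in these data, and chromosomes are not replicates.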

How the data were processed

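Peak lists of 2 TAF-1 ChIP libraries and of the whole series were analysed. Per the submitters' processing notes, BWA and the ce10 build were used. Coordinates refer to WormBase WS220 per the file headers, and the peaks carry the caller names MACS (replicates) and MACS v2 (series). The only value is the score per peak, as deposited by the authors. Not given in the sources used here are its scale, the cutoffs, the use of input and any pooling of replicates. Series scores run from 1.3 to 184.55, and replicate scores start at 50.01 and 50.03. Many replicate scores stop at 3100, with 109 replicate 2 peaks and 33 replicate 1 peaks at or above that score. Scores were compared only within a list. Read depth is unknown.

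From these lists, 3 mitochondrial series peaks were left out, gaps were taken between sorted neighbours, and peaks sharing at least 1 bp were called overlapping. The replicate score given for a series peak is the highest among overlapping peaks. Shares carry exact Clopper-Pearson intervals and differences of shares Newcombe intervals, at 95%. No p-values were computed, since peaks are not replicates. The members, the comparisons and the lists of pairs and runs were chosen with earlier results of these data known. Named are the 10 pairs with the highest weaker score, the best pair of each chromosome, the 5 largest runs, the 5 shortest gaps and the 3 gaps on each side of the limit. Alternatives varied the gap limit, overlap rule, score range, unit counted and replicate. The code for neighbour finding and overlap was checked on simulated peaks built with the same gap limit, where all 642 planted close peaks among 1821 were found. Simulated peaks came singly or in pairs, and any replicate peak lay over the whole pair. Longer runs and separate peaks for the members were therefore not checked. Software was Python 3.11.15 with pandas 2.3.3, numpy 2.4.6, statsmodels 0.14.6, scipy 1.17.1 and matplotlib 3.10.9.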

Additional observations from a re-analysis of the deposited data

How the results depend on the processing

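The share of nuclear series peaks with a close neighbour, 23.1%, was 15.8% for gaps under 500 bp, 32.2% under 2000 bp and 17.1% with midpoints under 1000 bp apart. With only the top 50% by score kept and neighbours sought among them alone, it was 15.2%, in a list thinned by that choice. In the full list, close peaks made up 20.7% and 21.8% of the upper 2 of 4 score classes. The share ranged from 14.2% to 19.4% when a single replicate list replaced the series list. The difference of 14.2 points in overlap with both lists was 26.2 points with the highest-scoring peak of each run, a choice that favours strong peaks. It ranged from 9.42 to 23.2 points with a single replicate. Among alternatives chosen after seeing the data, it was 5.88 points within 4 classes of series width, -1.16 on X alone and 2.31 on X without its 10-peak run. The ratio of median scores, 0.89, was 1.56 with the highest-scoring peak of each run and 0.59 among peaks in both lists. The difference in median width, 40 bp, was 123 bp with the widest peak of each run, a choice that favours wide peaks. Among peaks in both lists it was -4.5 bp. The share of pairs under a common peak in at least 1 list, 66.7%, was 79.4% for gaps under 500 bp and ranged from 22.5% to 60.9% with a replicate left out, also added after seeing the data. The share of pairs with both members in both lists, 40.8%, ranged from 54.1% to 66.2% with a single replicate, where the condition is weaker by construction. Other causes were not tested. The other 15 alternatives stayed within the counting intervals. No paired analysis was possible because peak lists were at hand for the ChIP libraries alone, while the shared numbers link them to input libraries. Since the depth is not known, sites without a call may still be bound.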

Other observations

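The mitochondrial peaks, left out above, included a close pair as well. In the series list the peaks at 4573 to 4767 and 4906 to 5064 were 139 bp apart and scored 9.47 and 2.41. The third, at 12261 to 12617, stood 7197 bp from the second and scored 1.76.

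Close peaks were spread over 228 of the 884 windows of 100 kb that held a series peak, and the 10 fullest windows, named after their values were seen, held 85 of 689 (12.3%). The 100-kb windows with the most close peaks were on X from 7300001 to 7400000 and on III from 400001 to 500000, with 10 each. The 10 in the X window are its 10-peak run. That window held 14 series peaks in all, of which 2 were in both replicate lists. The III window held 12, of which 6 were. The window on V from 10600001 to 10700000 held 8 series peaks, all of them close and 0 of them in both lists. They are the 8 members of the V run that a single replicate 1 peak covered.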
